A study of Mus musculus with 72 samples.

Results

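The genes described here encode the receptors for glutamate and GABA, the main excitatory and inhibitory transmitters of the brain, as measured in the mouse hypothalamus. Members were the protein-coding genes of the deposited edgeR tables whose symbols name a subunit of the AMPA (Gria), NMDA (Grin), kainate (Grik) or delta (Grid) receptors, a metabotropic glutamate receptor (Grm), or a subunit of the GABA-A (Gabra to Gabrr) or GABA-B (Gabbr) receptors, matched by Ensembl identifier to the count tables. This rule uses no measured value, but the set was chosen with earlier results of these data known. The rule gave 47 of 19524 protein-coding symbols: 26 for glutamate (4 AMPA, 7 NMDA, 5 kainate, 2 delta and 8 metabotropic) and 21 for GABA (19 GABA-A and 2 GABA-B). All 47 were listed in all 10 count tables.

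AMPA, NMDA and kainate receptors are cation channels assembled from several subunits that open when glutamate binds, and they differ in speed, in calcium permeability and in the place they take at the synapse. The metabotropic receptors signal through G proteins: Grm5 mainly on the postsynaptic side, and Grm2, Grm3, Grm4, Grm6, Grm7 and Grm8 mostly as inhibitory receptors, many of them on nerve endings. GABA-A receptors are chloride channels built from several subunits, whose composition sets whether they act at the synapse or in tonic inhibition outside it, and GABA-B receptors are G-protein-coupled pairs of Gabbr1 and Gabbr2. In the hypothalamus, GABA and glutamate inputs act on the neurons that drive hunger, body temperature and hormone release.

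The libraries are of hypothalamic RNA of adult B6 mice from 5 lines, E1 to E5, each with a knockout (KO) of a different conserved noncoding element and wild types (WT) of the same line. The design text asks whether knocking out these elements, which it links to hibernation, changes gene expression. Mice had either gone without food for 72 h, with water, or were fed. The 72 libraries form 20 groups of fasted KO, fasted WT, fed KO and fed WT mice in each line. Groups held 4 libraries, except 3 in fasted E1 WT, fasted E2 KO, fasted E2 WT, fasted E4 KO and all 4 E3 groups. The labels used here give neither the position of any element, nor the number of founders of a line, nor whether libraries are from separate animals, so the p-values measure only the spread between libraries.

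Libraries held 5517552 to 39999368 counts. All 18 markers of hypothalamic cells that were looked up were above 0 in every library. Fed and fasted libraries shared a batch number only in E1 and in E3, and the labels do not say what the number marks. Feeding was therefore tested in those lines, and in E2, E4 and E5 feeding and batch cannot be told apart. Ddx3y, on the Y chromosome, lay between 69.8 and 136 CPM (counts per 1e6 counts) in all 12 E3 libraries and at 0.316 or less in every other library, so that line E3, its batch and sex as read from Ddx3y coincide. Several libraries held transcripts of neighbouring tissue, such as anterior pituitary, which summed to 4657 scaled CPM in fasted E5 WT 3 and to 3.72, 45.3 and 200.7 in the other fasted E5 WT libraries.

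Levels are given as scaled CPM, taken over the genes common to all tables and scaled between libraries by the trimmed mean of M values (TMM). The AMPA subunit gene Gria1 had group means between 715 and 1230, Gria2 between 382 and 1000 and Gria4 between 337 and 862. Gria2 encodes the subunit that keeps AMPA receptors impermeable to calcium. These values are not divided by gene length and serve to compare groups, not genes. Of the NMDA subunit genes, Grin1, which every NMDA receptor needs, ranged from 114 to 217, Grin2c from 18.5 to 51.4, Grin2d from 22.8 to 69.8 and Grin3b from 0.329 to 0.984. Among kainate subunit genes, group means were 177 to 366 for Grik1, 524 to 1730 for Grik2, 129 to 294 for Grik3 and 105 to 265 for Grik5. Over single libraries, Gria3 lay between 122.4 and 503.9, Grin2a between 144.3 and 760.8, Grin2b between 392.2 and 1437, Grin3a between 107.9 and 258.5 and Grik4 between 100.3 and 376.4. The delta subunit gene Grid1, whose product organises synapses, had group means of 458 to 950.

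Of the metabotropic receptor genes, Grm2 had group means of 14.4 to 42.1, Grm3 of 102 to 396, Grm4 of 34.8 to 81.6, Grm5 of 391 to 1390 and Grm8 of 146 to 360 scaled CPM. Grm6, known as the receptor of retinal ON bipolar cells, reached 0.0606 at most and had 0 counts in 46 libraries. Of the GABA-A alpha subunit genes, Gabra2 ranged from 103 to 401, Gabra4 from 40.6 to 217 and Gabra5 from 6.09 to 10.9. Beta subunit genes had group means of 552 to 1260 for Gabrb1 and 166 to 464 for Gabrb2. The gamma subunit gene Gabrg3 lay at 367 to 889. Of the further GABA-A subunit genes, group means were 0.731 to 19.3 for Gabrd, 16.7 to 47.4 for Gabre, 58.8 to 135 for Gabrq, 0.565 to 1.76 for Gabrr1, 2.59 to 13.4 for Gabrr2 and 1.21 to 5.27 for Gabrr3. Gabrp had 0 counts in 37 libraries and a highest group mean of 0.0749. The GABA-B gene Gabbr2 ranged from 263 to 598. Over single libraries, Grm7 lay between 364.6 and 2096, Gabra3 between 64.84 and 229.9, Gabrg1 between 50.93 and 222.5 and Gabbr1 between 414.3 and 817.7.

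Gabra6, the alpha subunit gene of cerebellar granule cells, had 0 counts in 22 libraries, and 14.8 scaled CPM (446 counts) in fasted E5 WT 1, against at most 2.08 in each other library. The cerebellar list summed to 222 in that library and to 231, 230 and 180.5 in the other fasted E5 WT libraries, with Neurod1 and Pcp2 of its 7 markers at 0. Both genes were listed at 0 in all 72 libraries of the series, as were the neuronal genes Tubb3 and Nefl, so those zeros do not set the groups apart. The choroid plexus list summed to 179 in fasted E5 WT 1, against 46.35, 49.4 and 42.4. Their part in the Gabra6 value was not tested.

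**Figure D1:**
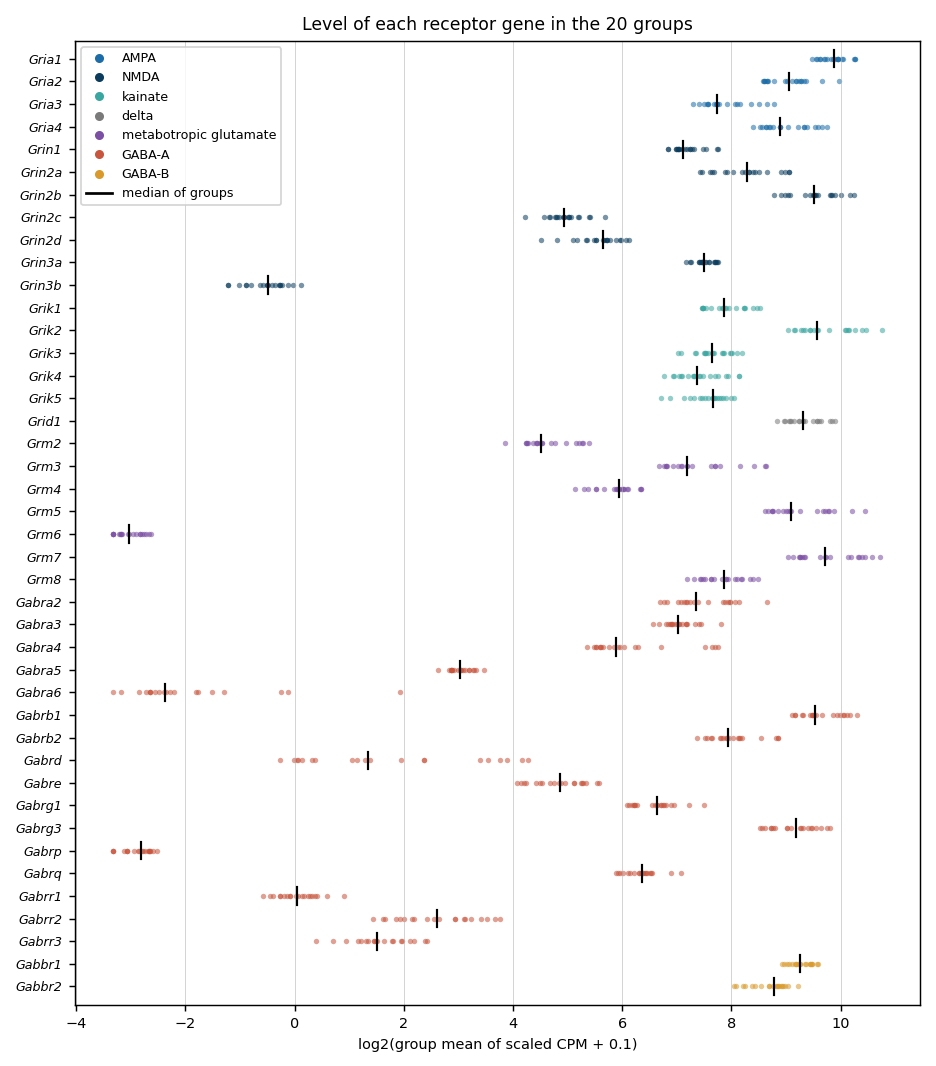
Group means of 42 of the receptor genes on a log2 axis of scaled CPM plus 0.1, with 1 point for each of the 20 groups and a black bar at their median. Values are not divided by gene length; the spread of the points along a line shows how far the groups differ for that gene.

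Counts grow with the length of what was counted, and the region counted per gene is not stated in the sources used here. Genes of long span were abundant: the 100 genes of highest median CPM had a median span of 502 kb, against 25.7 kb over 15966 genes kept. Levels of different genes are therefore set side by side only as medians over libraries, per kb of merged exons and per kb of gene span. Per exon kb, the highest glutamate receptor genes were Gria1 at 155, Grm7 at 144.2 and Grid1 at 109.3 scaled CPM, and the lowest were Grm6 at 0, Grin3b at 0.186 and Grm2 at 4.77. Among the highest GABA receptor genes per exon kb were Gabbr1 at 79.1 and Gabbr2 at 60.55, and the lowest were Gabrp at 0, Gabra6 at 0.02155 and Gabrr1 at 0.390. Per kb of span the order changed. Grin1 at 5.02, Gria2 at 4.225 and Grik5 at 3.115 then led the glutamate receptor genes, and Gabbr1 at 21.1 and Gabrq at 4.74 led the GABA receptor genes.

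Of the 47 members, 31 overlapped another annotated gene and 6 overlapped a protein-coding gene on the opposite strand. The strand used in counting is not stated, so reads of such partners cannot be told apart. Gabra5 is among these 6, with the largest shared part of its span. Grin3b shares 34.6% of its span with Tmem259, Grin2d 12.1% with Kdelr1, and Gabra4 and Gabrb1 share 196 bp. Levels and differences of these genes carry that limit.

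For the knockouts, the question was which receptor genes differed from wild type in the same line and feeding state. None of the 43 or 44 members tested in each of the 10 comparisons passed the threshold used throughout, an adjusted p under 0.05 by edgeR's quasi-likelihood test over all genes. The background was also 0%: 0 genes were called in any of these comparisons. DESeq2 called 0 members in 9 of them and 6 in fasted E3, and edgeR called 1 in fasted E2 without fasted WT 3. The shares of all genes in this text are those of edgeR with all libraries. None is given beside counts of members under DESeq2 or the other alternatives. At an unadjusted p under 0.05, the members numbered 2 in fasted and 3 in fed E1 (3.9% and 4.85% of all genes), 1 in fasted and 2 in fed E2 (7.47% and 3.5%), 19 in fasted and 5 in fed E3 (17.5% and 9.74%), 6 in fasted and 3 in fed E4 (9.39% and 5.23%), and 1 in each state of E5 (7.32% fasted and 2.82% fed). Over both feeding states, edgeR and DESeq2 called 0 members in each line, and 0, 1, 6, 1 and 1 members of E1 to E5 had an unadjusted p under 0.05 (2.04%, 5.23%, 7.01%, 2.97% and 3.29% of all genes). All the differences in the next paragraphs are log2 knockout over wild type with their standard errors (SE).

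**Figure D2:**
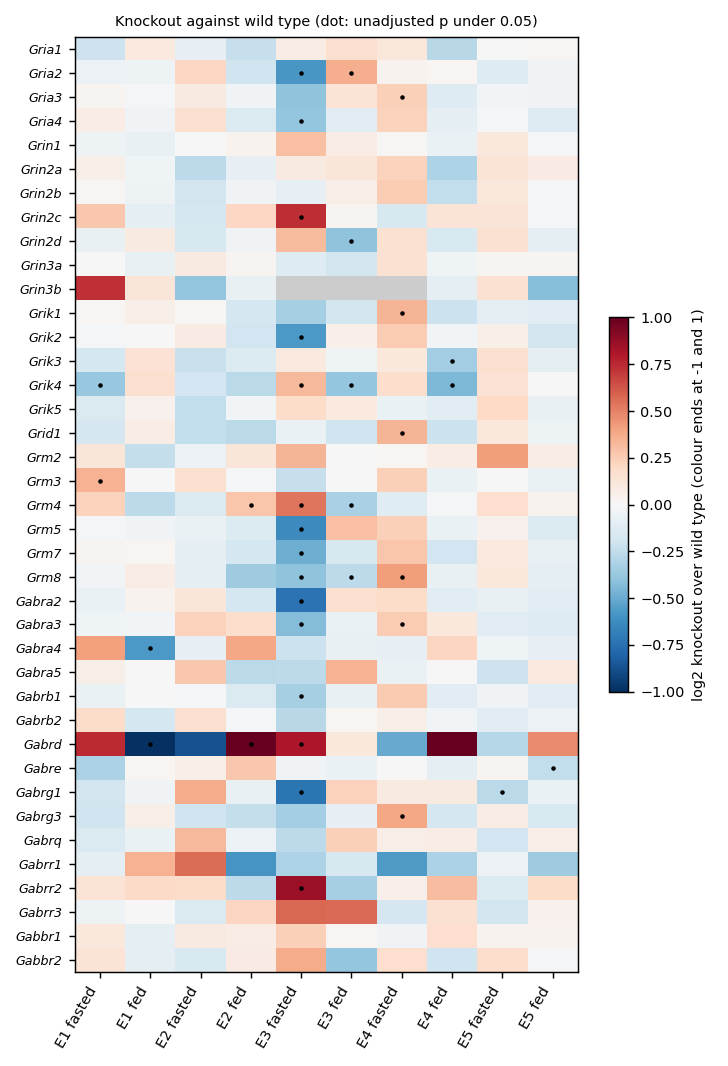
Log2 knockout over wild type of 39 receptor genes in the 10 comparisons, with red for higher and blue for lower in the knockout, grey for genes not tested, and a dot at an unadjusted p under 0.05. Dots are densest in fasted E3, with 15 of the genes drawn, and none of the differences passed after adjustment by edgeR.

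In E1, the extrasynaptic GABA-A subunit gene Gabrd was at 0.7765, 1.49, 0.3925 and 0.912 scaled CPM in fed KO and at 2.80, 1.27, 12.1 and 4.075 in fed WT. Fed KO and fed WT overlapped, and fed WT 3 stood highest. The difference was -2.46 (SE 0.59, edgeR adjusted p 0.953). In the authors' deposited table, where the difference is wild type over knockout, Gabrd in fed E1 had a log2 value of 2.49 and an adjusted p of 0.0421. It was the only member past 0.05 in the 8 deposited tables, and the table of fed E1 called 12 genes. Gabra4, which often pairs with Gabrd in thalamic receptors, differed by -0.57 (SE 0.18) in the same comparison. The 10 thalamus markers summed to 1352, 1384, 1389 and 1507 scaled CPM in fed E1 KO and to 1264, 1324, 2126 and 1422 in fed E1 WT, so that the highest sum was also in fed WT 3. The part of thalamus in these differences was not tested. Grik3 and Grik4 had 0.14 (SE 0.08) and 0.16 (SE 0.09) in fed E1. In fasted E1, Grm3 had 0.35 (SE 0.15), Gabrd 0.74 (SE 0.46) and Grik4 -0.38 (SE 0.14), with an edgeR adjusted p of 0.954 for each.

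In E3, fasted knockouts had 19 members with an unadjusted p under 0.05, the most of the 10 comparisons. The GABA-A alpha2 subunit gene Gabra2 was at 279.7, 221 and 206 scaled CPM in fasted KO and at 459, 382 and 360 in fasted WT. All 3 fasted KO libraries lay below all 3 fasted WT libraries. The difference was -0.74 (SE 0.15, edgeR adjusted p 0.148), and -0.37 (edgeR adjusted p 0.544) with the GC trend taken out. Gria2 was at 735, 706 and 531 in fasted KO, against 1228, 924 and 859 in fasted WT, and the groups did not overlap either. Grin2c, an NMDA subunit gene of cerebellum and astrocytes, was at 21.6, 33.5 and 35.4 in fasted KO and at 15.4, 21.8 and 18.3 in fasted WT. These groups overlapped by 1 library, and the difference was 0.74 (SE 0.20, edgeR adjusted p 0.173). Gabra3 had -0.43 (SE 0.11), or -0.24 with the GC trend taken out, and Grm4, an inhibitory receptor of nerve endings, 0.53 (SE 0.19).

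The median over members in fasted E3 was -0.23, against 0.02 over all genes. Of 43 members, 16 had positive and 27 negative values. Across them, the difference followed the GC content of the transcript (Pearson r 0.76, Spearman rho 0.79; a description over genes that share the same 6 libraries). DESeq2 called Grin2c as higher, and Gabra2, Gabra3, Gabrg1 and Gria2 were among the members it called as lower. A model of both feeding states together called 3 members, among them Grin2c and Gabra2. In fed E3, Gria2 had 0.37 (SE 0.10), Grm5 0.30 (SE 0.14), Grm4 -0.33 (SE 0.09) and Grin2d -0.40 (SE 0.12), with edgeR adjusted p of 0.361, 0.527, 0.341 and 0.367. Over both feeding states, Grin2c had 0.38 (SE 0.16), Grin1 0.19 (SE 0.09), Grm8 -0.32 (SE 0.10) and Gabra3 -0.25 (SE 0.09), each with an edgeR adjusted p of 0.676.

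In the lines E2, E4 and E5, the members of smallest p had edgeR adjusted p of 0.496 or more. In fasted E2, Gabrg1 had 0.37 (SE 0.22), Grik3 -0.22 (SE 0.10) and Grin2a -0.26 (SE 0.15). In fed E2, Gabrd had 2.05 (SE 0.86), Grm4 0.28 (SE 0.11) and Grm8 -0.36 (SE 0.17). The difference of Gabrd in fed E2 carried the widest error of the values given for these lines, and was 0.71 without libraries that held other tissue or were shallow, left out after seeing the data. In fasted E4, Grm8 had 0.42 (SE 0.16), Grik1 0.34 (SE 0.11), Grin2c -0.16 (SE 0.13) and Grm4 -0.12 (SE 0.16). The Grm4 value was 0.05 with the GC trend taken out and 0.08 without fasted E4 WT 2. All 6 members with an unadjusted p under 0.05 in fasted E4 were higher in knockouts, and across 43 members the difference followed the log of gene span (Pearson r 0.76, Spearman rho 0.84). The mean log2 level of long minus short genes was -0.159, -0.4 and -0.091 in fasted E4 KO. It was -0.545, -0.379, -0.597 and -0.43 in fasted E4 WT. In fasted E4 KO 1, the shallowest library, 10 genes took 33.36% of the counts in genes common to all tables. In fed E4, Grin2c had 0.14 (SE 0.09), Grik4 -0.45 (SE 0.15) and Grik3 -0.35 (SE 0.14). Across 44 members the fed E4 difference fell with the log of gene span (Pearson r -0.50, Spearman rho -0.53). Long genes minus short genes, as a mean log2 level, gave 1.025 in fed E4 WT 4 and 0.024 to 0.252 in the other fed E4 libraries. The part of that library in these values was not tested. In fasted E5, Grik5 had 0.20 (SE 0.10), Gabbr2 0.18 (SE 0.11) and Gabrg1 -0.27 (SE 0.12). In fed E5, Gabrr2 had 0.19 (SE 0.20), Gabra5 0.10 (SE 0.12), Gabre -0.25 (SE 0.09) and Grik2 -0.18 (SE 0.12).

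Over both feeding states, the members of smallest p in the lines other than E3 had edgeR adjusted p of 0.853 or more. E1 had 0.16 (SE 0.10) for Grm3, 0.16 (SE 0.13) for Gabrr2 and -0.06 (SE 0.05) for Grin1. E2 had 0.19 (SE 0.11) for Gabra3, -0.27 (SE 0.14) for Grid1 and -0.24 (SE 0.13) for Grik4. Each of these estimates was under 0.3 in size. E4 had 0.17 (SE 0.07) for Gabra3, -0.09 (SE 0.06) for Grik5 and -0.14 (SE 0.10) for Grik3. E5 had 0.25 (SE 0.17) for Grm2, 0.11 (SE 0.11) for Grin2a, -0.12 (SE 0.06) for Gabra3 and -0.17 (SE 0.10) for Gabrg1.

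Whether the knockout difference depended on feeding was tested as an interaction, the difference in fasted minus that in fed libraries. edgeR called 0 members in each line, against 0% of all genes in E1, E2, E4 and E5 and 1.34% in E3. DESeq2 called 0 members in 4 lines and 8 in E3. In E3, edgeR called 3 without fasted KO 1, 4 without fasted WT 2 and 1 without fed WT 1. Members with an unadjusted p under 0.05 numbered 5, 3, 15, 6 and 0 in E1 to E5, where all genes gave 8.1%, 6.45%, 20.4%, 11.2% and 5.95%. In E3 values near the threshold were -0.94 (SE 0.22, edgeR adjusted p 0.0515) for Gria2, 0.87 (SE 0.22, 0.0619) for Grm4 and 0.72 (SE 0.19, 0.0675) for Grik4. Gria2 in E3 was at 735, 706 and 531 in fasted KO, 1228, 924 and 859 in fasted WT, 784, 892 and 743 in fed KO and 576, 625.3 and 647 in fed WT. Knockouts were thus below wild types when fasted and above them when fed, with no overlap in either state. Across 44 members the E3 interaction followed transcript GC (Pearson r 0.83, Spearman rho 0.85), and Gria2 is poor in it, at 36.8%. The level of GC-rich minus GC-poor genes was -0.676, -0.726 and -0.315 in fasted E3 KO and -1.259, -0.792 and -1.137 in fasted E3 WT. It was -0.665, -0.66 and -0.682 in fed E3 KO and -0.522, -0.71 and -0.651 in fed E3 WT. With the GC trend of each library taken out, edgeR called no member in the E3 interaction. In the other lines, E1 had 3.20 (SE 0.89) for Gabrd, 0.98 (SE 0.42) for Gabra4, -0.54 (SE 0.18) for Grik4 and -0.32 (SE 0.14) for Grik3. E2 had 0.42 (SE 0.20) for Gria2, -0.41 (SE 0.17) for Grm4 and -2.91 (SE 1.29) for Gabrd, which was -1.53 without libraries of those kinds. For E4 they were 0.61 (SE 0.19) for Grik4, 0.55 (SE 0.21) for Grid1, -0.32 (SE 0.16) for Grin2c and -0.21 (SE 0.18) for Gabbr1. Across 44 members the E4 interaction followed the log of gene span (Pearson r 0.74, Spearman rho 0.83). The mean log2 level of long genes minus short genes was 1.025 in fed E4 WT 4, against 0.102, 0.191 and 0.114 in the other fed E4 WT libraries. For E5 the interactions were 0.26 (SE 0.13) for Gabre, 0.26 (SE 0.14) for Grik5 and -0.32 (SE 0.17) for Gabra5.

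Receptor genes were called in 5 of the 6 comparisons of fasted with fed libraries within a batch. Over E1 and E3 together, with line as a term, fasted WT had higher Gabrr2 and lower Grik3, Grik4 and Grin2d than fed WT. In all, edgeR called 5 of 44 members, against 10.7% of all genes, and 13 members had an unadjusted p under 0.05, against 29.1% of all genes. The count was 10 without fasted E1 WT 3, and 3 without any one of fasted E3 WT 1, fed E1 WT 2 or 3 and fed E3 WT 2 or 3. Without 2 libraries that held transcripts of other tissue (fed E1 WT 2 and fasted E3 WT 1), 0 members and 369 genes were called, an alternative chosen after seeing the data. In fasted KO against fed KO of the same lines, which share no library with the wild types, 16 members were called (4 higher and 12 lower; 19.2% of all genes), and 9 without fed E1 KO 1 or 2 and 10 without fed E1 KO 4. Gabrr2, Grik3, Grik4 and Grin2d were called in both, in the same direction, though none of them was called in E3 KO alone. They are 4 of the 5 members called in wild types and 4 of the 16 in knockouts. How many of all genes were called in both was not counted, so this overlap has no background. The medians over members were -0.05 in wild types and -0.12 in knockouts, against 0.01 over all genes in each. In bulk tissue, fewer cells of a type and less RNA per cell cannot be told apart.

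The promoters of the 4 genes called in both genotypes are shown as the sequence from 250 bases before to 50 bases after the RefSeq start (GRCm38.p6). Capitals mark GC boxes (GGGCGG or its complement CCGCCC) and the hexamer AGAACA or its complement TGTTCT, which is found in glucocorticoid response elements. They lie at chr4:33062862-33063161 (plus strand) for Gabrr2, chr4:125490446-125490745 (plus) for Grik3, chr9:42944322-42944621 (minus) for Grik4 and chr7:45866632-45866931 (minus) for Grin2d. The RefSeq starts of Gabrr2, Grik4 and Grin2d lie inside the annotated genes. The stretches shown for Gabrr2 and Grik4 still hold the annotated start. That of Grin2d does not, since the annotated gene, on the minus strand, starts at chr7:45878378.
Gabrr2: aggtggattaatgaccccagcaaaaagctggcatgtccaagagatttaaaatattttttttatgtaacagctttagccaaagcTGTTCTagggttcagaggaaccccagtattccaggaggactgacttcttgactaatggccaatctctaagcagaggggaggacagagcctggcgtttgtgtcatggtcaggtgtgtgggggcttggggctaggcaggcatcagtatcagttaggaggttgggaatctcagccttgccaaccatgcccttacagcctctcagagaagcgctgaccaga
Grik3: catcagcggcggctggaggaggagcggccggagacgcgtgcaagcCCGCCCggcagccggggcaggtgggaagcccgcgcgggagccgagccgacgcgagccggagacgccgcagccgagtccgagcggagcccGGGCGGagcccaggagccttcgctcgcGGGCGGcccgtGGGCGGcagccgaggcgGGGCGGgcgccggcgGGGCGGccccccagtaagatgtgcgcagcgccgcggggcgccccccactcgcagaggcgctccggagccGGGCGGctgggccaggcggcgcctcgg
Grik4: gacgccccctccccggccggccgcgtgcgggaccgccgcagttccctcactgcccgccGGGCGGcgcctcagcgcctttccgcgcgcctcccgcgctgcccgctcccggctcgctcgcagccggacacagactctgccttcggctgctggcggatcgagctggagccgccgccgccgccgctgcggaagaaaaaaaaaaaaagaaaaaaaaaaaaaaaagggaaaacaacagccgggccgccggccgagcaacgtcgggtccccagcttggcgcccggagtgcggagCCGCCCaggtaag
Grin2d: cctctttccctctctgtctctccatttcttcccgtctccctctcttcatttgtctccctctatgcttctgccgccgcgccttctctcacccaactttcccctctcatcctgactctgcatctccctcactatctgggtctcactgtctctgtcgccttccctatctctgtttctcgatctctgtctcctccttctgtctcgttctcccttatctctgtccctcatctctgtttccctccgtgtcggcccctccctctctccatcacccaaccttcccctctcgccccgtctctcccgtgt
The promoter of Gabrr2 had 1 such hexamer, no GC box and 49.3% GC, that of Grik3 7 GC boxes and 82.0% GC, that of Grik4 2 GC boxes and 70.0% GC, and that of Grin2d no match and 56.0% GC. Over all 32851 RefSeq promoters of this length, the median GC was 52.7%, a GC box was found in 35.7% and the hexamer in 19.0%, counting both strands. RefSeq gave 39 promoters for 32 of the 47 members. A GC box was found in 19 of these 39 promoters and the hexamer in 6. Counted by gene, with any promoter of a gene taken, these were 18 and 5 of the 32 members. The FoxO motif TGTTTAC was found in 1 of them, Gabrr1, and in 3.65% of all promoters, and the cyclic AMP response element TGACGTCA in 0 of them and in 1.79% of all promoters. A match is a run of letters and not a site.

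Gabrr2 (chr4:33062999-33095865, plus strand, mm10) encodes the rho2 subunit, known from GABA-A receptors of the retina that desensitise slowly. In E1 it was at 10.6, 12.4, 14.6 and 12.6 scaled CPM in fasted KO and at 11.9, 13.45 and 8.81 in fasted WT. It was at 2.59, 2.38, 2.50 and 4.44 in fed KO and at 2.45, 2.795, 2.30 and 2.80 in fed WT. All 7 fasted libraries lay above all 8 fed ones. The log2 difference, fasted over fed, was 2.14 in WT (SE 0.17, edgeR adjusted p 0.00204) and 2.09 in KO (SE 0.19, edgeR adjusted p 6.82e-05).

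In E3, Gabrr2 was at 10.5, 19.2 and 10.4 scaled CPM in fasted KO, 11.7, 4.43 and 6.58 in fasted WT, 7.32, 4.76 and 6.28 in fed KO, and 7.91, 7.565 and 7.19 in fed WT. The fasted and fed WT overlapped, and fasted KO lay above fed KO. The difference was -0.01 in WT (SE 0.31, edgeR adjusted p 0.99) and 1.17 in KO (SE 0.28, edgeR adjusted p 0.129). The fasting difference in E1 minus that in E3 was 2.18 in WT (SE 0.37, edgeR adjusted p 0.00465). Over both lines the difference was 1.12 in WT (SE 0.34, edgeR adjusted p 0.045) and 1.67 in KO (SE 0.21, edgeR adjusted p 0.000225). The WT value over both lines passed in 8 of 20 alternatives (adjusted p between 0.00418 and 0.168), and the KO value in 21 of 21.

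The other lines give Gabrr2 values side by side, since their fed and fasted libraries were of different batches. In E2 it was at 9.75, 10.4 and 11.2 scaled CPM in fasted KO, 10.5, 9.78 and 7.51 in fasted WT, 2.73, 3.37, 3.35 and 2.71 in fed KO, and 5.23, 3.685, 3.085 and 2.81 in fed WT. In E4 it was at 5.67, 10.6 and 9.17 in fasted KO, 6.47, 9.18, 10.2 and 8.73 in fasted WT, 3.32, 3.83, 4.51 and 5.62 in fed KO, and 4.48, 2.51, 3.535 and 3.57 in fed WT. In E5 it was at 6.39, 4.75, 4.23 and 5.75 in fasted KO, 4.73, 4.63, 7.495 and 6.34 in fasted WT, 4.84, 4.84, 4.47 and 3.65 in fed KO, and 3.91, 2.665, 5.24 and 3.87 in fed WT. Every fasted library of E2 and of E4 lay above every fed library of its line, and in E5 they overlapped. Of the other rho subunit genes, Gabrr1 was called in none of the fasting comparisons, and Gabrr3 in knockouts of E1 and of both lines, where it was higher.

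**Figure D3:**
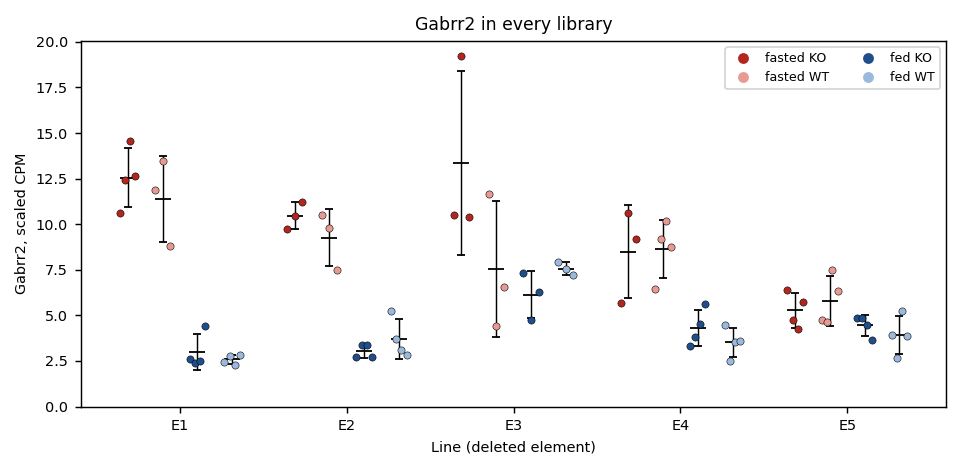
Gabrr2 in scaled CPM in each of the 72 libraries, by line, with fasted KO, fasted WT, fed KO and fed WT side by side; points are libraries and bars are the group mean and SD. In E1 the fasted libraries lie between 8.81 and 14.6 and the fed ones between 2.30 and 4.44, while in E3 and E5 fasted and fed overlap.

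In the fits over E1 and E3 together, both kainate receptor genes called in each genotype fell with fasting. Neither was called in E1 WT alone or in E3 KO alone, so the joint calls do not show a fall in each line. Levels in E3 KO are not given here for Grik3, Grik4 or Grin2d. For Grik4 the E3 interaction given above was 0.72 (SE 0.19, edgeR adjusted p 0.0675), opposite in sign to its fall in E3 WT. Grik4 (chr9:42518135-42944493, minus strand, mm10) encodes GluK4, a subunit that forms channels only with other kainate subunits. In E1 it was at 128.5, 117.5, 122 and 120.4 scaled CPM in fasted KO, 143, 132 and 202 in fasted WT, 229, 219, 242.5 and 271 in fed KO, and 187, 259, 215 and 197 in fed WT. All fasted KO libraries lay below all fed KO libraries, while fasted WT 3 lay among the fed WT. In E3 it was at 104.5, 100.3 and 118 in fasted WT, against 130.1, 171.9 and 178 in fed WT. Fasted E3 WT did not overlap fed E3 WT. The differences were -0.97 in E1 KO (SE 0.07, edgeR adjusted p 3.2e-05), -0.58 in E3 WT (SE 0.13, 0.0163) and -0.51 in WT of both lines (SE 0.11, 0.0135).

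Grik3 (chr4:125490700-125714173, plus strand, mm10) encodes GluK3, a kainate subunit of low glutamate affinity. In E1 it was at 171, 159.9, 158 and 167 scaled CPM in fasted KO, 166, 167 and 223.1 in fasted WT, 238.5, 254, 287 and 248 in fed KO, and 229, 254, 252 and 199.2 in fed WT. Fasted KO lay below fed KO in all libraries, and fasted WT 3 again lay among the fed WT. In E3 it was at 124.5, 130 and 133 in fasted WT and at 160.2, 182 and 204.2 in fed WT, with no overlap. The differences were -0.64 in E1 KO (SE 0.07, edgeR adjusted p 0.00016), -0.50 in E3 WT (SE 0.11, 0.0143), -0.42 in WT of both lines (SE 0.09, 0.0128) and -0.53 in KO of both lines (SE 0.10, 0.00402).

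Grin2d (chr7:45831883-45878378, minus strand, mm10) encodes GluN2D, an NMDA receptor subunit with slow closing that is common in subcortical neurons. In E1 it was at 44.9, 53.6, 44.1 and 56.2 scaled CPM in fasted KO, 49.8, 57.0 and 49.96 in fasted WT, 63.9, 67.9, 69.7 and 64.8 in fed KO, and 59.9, 61.55, 72.25 and 57.3 in fed WT. In E3 it was at 20.3, 19.45 and 28.8 in fasted WT and at 40.3, 51.9 and 41.7 in fed WT. Fasted libraries lay below fed ones in E1 KO, in E1 WT and in E3 WT. edgeR called Grin2d neither in E1 WT alone nor in E3 KO alone. The differences were -0.41 in E1 KO (SE 0.08, edgeR adjusted p 0.00328), -0.97 in E3 WT (SE 0.16, 0.0055), -0.58 in WT of both lines (SE 0.14, 0.0175) and -0.35 in KO of both lines (SE 0.08, 0.00769). E1 WT and E3 WT differed in this fall, by 0.75 (SE 0.20, edgeR adjusted p 0.0237).

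In E1 alone, 7 members were called in WT (1 higher and 6 lower; 5.27% of all genes) and 23 in KO (10 higher and 13 lower; 34.9% of all genes). At an unadjusted p under 0.05 they were 27 in KO, against 45% of all genes. The WT count was 15 without fasted E1 WT 3, 3 without fasted E1 WT 1, 2 without fasted E1 WT 2 and 4 without fed E1 WT 1 or 4. Gabrr2 as higher, and Gabrb1, Gabrg3, Grik1 and Grm8 as lower, were among the members called in both. The members called in both are 6 of the 7 in WT and 6 of the 23 in KO. The same overlap over all genes was not counted here either. Gabrg3, a GABA-A gamma subunit gene of long span, was at 366, 340, 333 and 432 scaled CPM in fasted KO, 433, 394 and 436.7 in fasted WT, 631, 679, 604 and 616 in fed KO, and 612.5, 613, 645 and 566 in fed WT. Every fasted E1 library lay below every fed one. The differences of Gabrg3 were -0.77 in KO (SE 0.09, edgeR adjusted p 0.000189) and -0.52 in WT (SE 0.07, 0.00816).

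Other members called in E1 WT included Grm7 at -0.44 (SE 0.08), Grm8 at -0.34 (SE 0.07), Grik1 at -0.37 (SE 0.08) and Gabrb1 at -0.29 (SE 0.07), with edgeR adjusted p of 0.0157, 0.0199, 0.0256 and 0.0486. Grm7 and Grm8 encode presynaptic inhibitory glutamate receptors. In KO, the further members named by their p were Grid1 at -0.56 (SE 0.10), Grm8 at -0.44 (SE 0.08) and Grik1 at -0.41 (SE 0.08), which fell, and Grin2c at 0.77 (SE 0.14), Gabbr1 at 0.34 (SE 0.07), Grin1 at 0.26 (SE 0.06) and Gabrb2 at 0.39 (SE 0.10), which rose. Their edgeR adjusted p lay between 0.0013 and 0.0106. Gabrr3, Grm2, Gabra2, Gabre, Gria1, Grik2 and Gabrb1 were also called in E1 KO, the first 2 as higher and the others as lower. Across 44 members, the difference fell with the log of gene span in KO (Pearson r -0.45, Spearman rho -0.48) and in WT (-0.40 and -0.54). Libraries themselves tilted by span: the mean log2 level of long genes minus short genes was -0.408, -0.353, -0.262 and -0.052 in fasted E1 KO, -0.239, -0.278 and -0.108 in fasted E1 WT, 0.12, 0.021, -0.107 and 0.081 in fed E1 KO, and -0.043, -0.018, -0.04 and -0.054 in fed E1 WT. With each library's span trend taken out, 22 members were called in E1 KO and 1, Gabrr2, in E1 WT.

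Gabrd and Gabra4, subunits of extrasynaptic receptors in thalamus, were also called as higher in E1 KO. Gabrd was at 5.92, 17.6, 23.0 and 30.7 scaled CPM in fasted KO, 8.93, 17.1 and 8.64 in fasted WT, 0.7765, 1.49, 0.3925 and 0.912 in fed KO, and 2.80, 1.27, 12.1 and 4.075 in fed WT. Fasted KO lay above fed KO throughout, and fasted and fed WT overlapped. The difference was 4.42 in KO (SE 0.51, edgeR adjusted p 0.000194). Gabra4 was at 51.9, 88.2, 115 and 161 in fasted KO, against 40.3, 46.2, 34.5 and 41.5 in fed KO, a difference of 1.36 (SE 0.26, edgeR adjusted p 0.00232). The thalamus markers, all 10 above 0 in each library of both groups, summed to 988, 1654, 1853 and 2475 in fasted KO and to 1352, 1384, 1389 and 1507 in fed KO. The fasted KO library lowest in that sum was also lowest in Gabrd and Gabra4, and the highest was highest in both. The 8 striatum markers, none at 0, summed to 371 to 695 in fasted KO and to 675 to 807 in fed KO. The part of these tissues in the result was not tested.

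**Figure D4:**
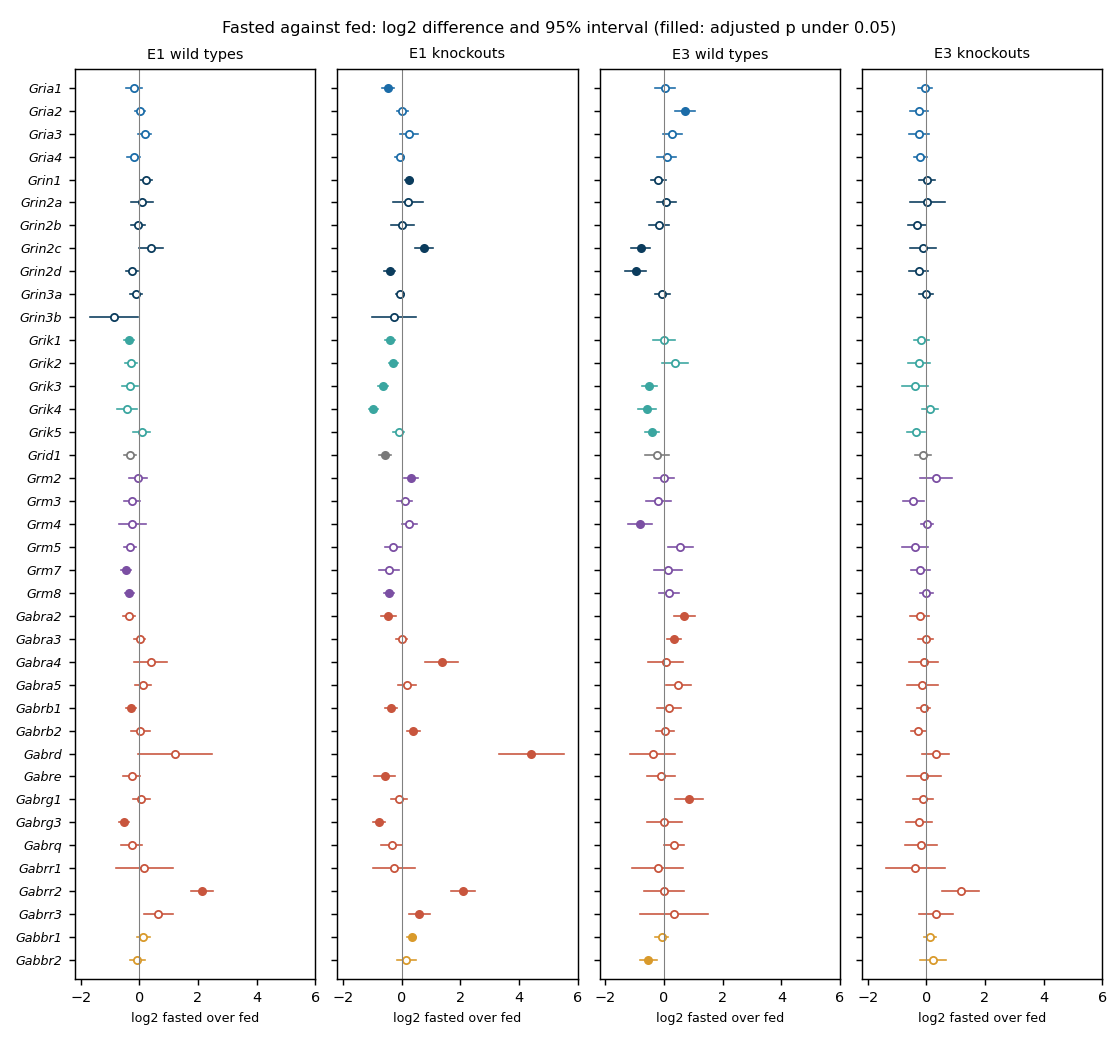
Log2 fasted over fed of 39 receptor genes tested, with 95% intervals, in E1 wild types, E1 knockouts, E3 wild types and E3 knockouts; filled points passed an adjusted p under 0.05. E1 knockouts have 21 filled points, E3 wild types 11, E1 wild types 6 and E3 knockouts 0.

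In E3 alone, 13 members were called in WT (6 higher and 7 lower; 19.9% of all genes). The count was 5 without fasted E3 WT 1, 8 without fasted E3 WT 3, 4 without fed E3 WT 2 and 2 without fed E3 WT 3. Among the members that rose were the GABA-A genes Gabra2, Gabra3 and Gabrg1, and Gria2. Those that fell were Gabbr2, Grik3, Grik4, Grik5, Grin2c, Grin2d and Grm4. The E3 WT differences were 0.70 for Gria2 (SE 0.15), 0.68 for Gabra2 (SE 0.16), 0.86 for Gabrg1 (SE 0.21) and 0.35 for Gabra3 (SE 0.11). They were -0.80 for Grin2c (SE 0.14), -0.83 for Grm4 (SE 0.18), -0.53 for Gabbr2 (SE 0.13) and -0.41 for Grik5 (SE 0.11). The edgeR adjusted p of these 8 members lay between 0.00635 and 0.0454.

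The members that rose in E3 WT were poor in GC and those that fell were rich in it. Across 43 members the difference followed transcript GC (Pearson r -0.87, Spearman rho -0.88), with Gabrg1 at 35.3% GC and Grin2d at 65.0%. The level of GC-rich minus GC-poor genes was -1.259, -0.792 and -1.137 in fasted E3 WT and -0.522, -0.71 and -0.651 in fed E3 WT libraries. After the GC trend of each library was taken out, Grik3, Grik4, Grin2c and Grin2d were still called, 4 of the 13, and Gria2 and Gabra2 had 0.29 and 0.33 with edgeR adjusted p of 0.171 and 0.154. Tissue markers also differed: hypothalamus markers summed to 419.3 or more in each fasted E3 WT library and to 321.7 or less in each fed one, and the cerebellar list, with Neurod1 and Pcp2 at 0 as in every library, to 234 to 333 in fasted and to 166 to 196 in fed E3 WT. The hypothalamus list includes peptide genes, with medians over libraries of 112 scaled CPM for Avp and 93.67 for Oxt, against 32.58 for Otp. Its sum can thus move with peptide levels as well as with tissue. The part of these tissues in the result was not tested. In fasted against fed E3 KO, edgeR called 0 members (0.505% of all genes) and 5 had an unadjusted p under 0.05 (13.1% of all genes), and DESeq2 called 1, Gabrr2. Gabrd, next to Gabrr2 among the higher members by p, had 0.31 (SE 0.20, edgeR adjusted p 0.569). Grm3 at -0.44 (SE 0.16) and Grik5 at -0.35 (SE 0.13) had the smallest p of the lower members, with edgeR adjusted p of 0.291 and 0.319.

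**Figure D5:**
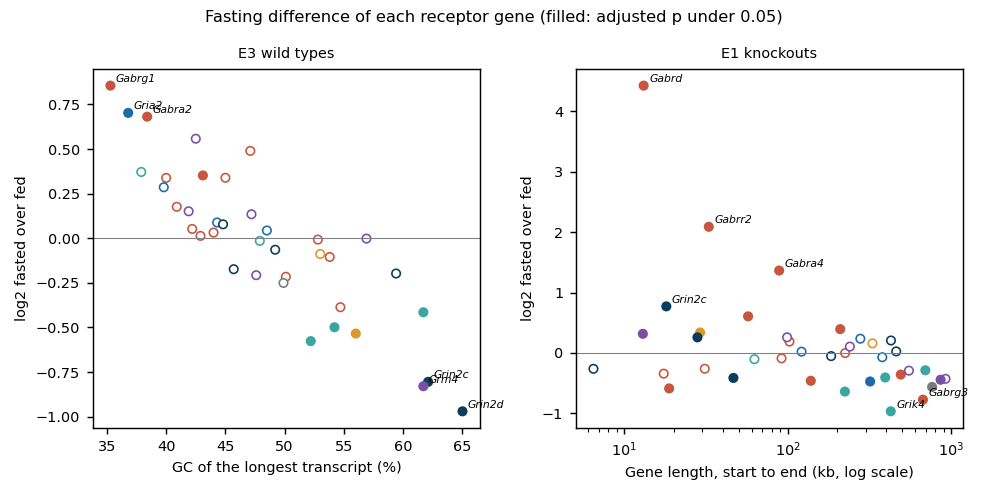
Log2 fasted over fed of the same receptor genes against transcript GC in E3 wild types (left) and against gene length from start to end, on a log axis, in E1 knockouts (right); filled points passed an adjusted p under 0.05. On the left the points fall from Gabrg1 at 35.3% GC to Grin2d at 65.0%; on the right the spread is wide, with Gabrd and Gabrr2 at the top.

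Whether the fasting difference of wild types differed between E1 and E3 was tested itself. In WT, 7 members were called (13.1% of all genes), 14 without fasted E3 WT 2, 3 without fasted E1 WT 2 and 4 without fed E1 WT 1 or 4. The fasting difference was higher in E1 than in E3 for Gabrr2 by 2.18 (SE 0.37), Grin2c by 1.24 (SE 0.26), Grin2d by 0.75 (SE 0.20) and Grin1 by 0.46 (SE 0.14). It was lower in E1 for Gabra2 at -1.01 (SE 0.19), Grm5 at -0.84 (SE 0.22) and Gria2 at -0.65 (SE 0.17). The edgeR adjusted p of these 7 members lay between 0.00465 and 0.0433. Gabrr2, Grin2c and Gabra2 were still called after the GC trend of each library was taken out. Gabra2 was at 109, 93.3 and 122 scaled CPM in fasted E1 WT and at 141.5, 135, 134 and 149 in fed E1 WT, but at 459, 382 and 360 in fasted E3 WT and at 194.9, 274 and 279.7 in fed E3 WT. Fasted WT libraries thus lay below the fed ones in E1 and above them in E3, with no overlap in either line. The lines also differ in batch and in sex as read from Ddx3y, so these cannot be told apart.

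Over both lines, knockouts that had fasted had further called members besides Gabrr2 and the 3 shared with wild types. Gabbr1, the GABA-binding partner of the GABA-B pair, was at 692, 768, 802 and 809.6 scaled CPM in fasted E1 KO, 709.9, 767.5 and 804 in fasted E3 KO, 582, 634, 618 and 611.5 in fed E1 KO, and 718, 669 and 763 in fed E3 KO. The groups were apart in E1 and overlapped in E3, and the difference was 0.24 (SE 0.06, edgeR adjusted p 0.0133). Gabrr3 had 0.50 (SE 0.14) and Gabrd 2.20 (SE 0.60), with edgeR adjusted p of 0.0189 and 0.0199. Further falls were those of Gabrg3 at -0.56 (SE 0.12), Grid1 at -0.38 (SE 0.09), Gabra2 at -0.36 (SE 0.10), Grik1 at -0.31 (SE 0.07) and Gria1 at -0.30 (SE 0.09), with edgeR adjusted p between 0.00696 and 0.0266. Gabrb1, Grik2 and Grm8 were also lower. With each library's span trend taken out, 8 members were called. These fits share their libraries with the fits of E1 and E3 alone.

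A further comparison set fasted E5 WT against fed E2 WT, which were of the same batch but of different lines, so feeding and line cannot be told apart. Of 44 members, 24 were called (8 higher and 16 lower; 30.7% of all genes), 15 without fasted E5 WT 3, 14 without fed E2 WT 3, and 6 without 2 fasted E5 WT libraries that held other tissue (an alternative chosen after seeing the data). The level of long-span minus short-span genes was -0.429, -0.541, -0.527 and -0.156 in fasted E5 WT and 0.081, 0.088, 0.10 and -0.065 in fed E2 WT libraries. With that span trend taken out, also chosen after seeing the data, 14 members were higher and 2 lower, Grin2d and Grm2. Gabre and Gabrq, GABA-A subunit genes known from hypothalamus and brainstem, had the smallest p of the higher members. Gabre was at 38.4, 37.2, 35.7 and 39.3 scaled CPM in fasted E5 WT and at 28.8, 22.2, 15.5 and 18.9 in fed E2 WT, and Gabrq at 124, 169, 129 and 117.5 against 85.6, 90.35, 80.35 and 105.4. Neither gene overlapped between the groups. Their differences were 0.84 (SE 0.15, edgeR adjusted p 0.00196) and 0.60 (SE 0.12, edgeR adjusted p 0.00368). Gabrg1, Gabra5, Gabra3, Grin1 and Gabrr2 were also higher, by 0.60, 0.57, 0.33, 0.21 and 0.66, where Gabra5 carries the limit of overlap given above. Among the 16 lower members were Grid1 at -0.62, Grin2b at -0.55, Grin2a at -0.54, Grm7 at -0.53, Grin2d at -0.52 and Grm8 at -0.52. Of these 6, Grin2d alone was still called after the span trend was taken out, at -0.45, while Grid1 was at -0.15 and Grm7 and Grm8 were each within 0.02 of 0. Hypothalamus markers summed to 748.5 to 1139 in fasted E5 WT and to 501.5 to 543 in fed E2 WT, and thalamus markers to 571 to 874 and to 930.1 to 1280, and their part in the result was not tested. The hypothalamus sum carries the limit of peptide genes given above.

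Genes around the receptors were counted in 7 lists, chosen with earlier results of these data known. In the knockout comparisons edgeR called 0 of their 82 genes tested. Those with an unadjusted p under 0.05 numbered 3 in fasted and 5 in fed E1 (3.9% and 4.85% of all genes). In the same order they were 4 and 1 in E2 (7.47% and 3.5%) and 19 and 18 in E3 (17.5% and 9.74%). They were 7 and 4 in E4 (9.39% and 5.23%) and 8 and 1 in E5 (7.32% and 2.82%). Over both feeding states they were 1, 4, 10, 2 and 1 in E1 to E5 (2.04%, 5.23%, 7.01%, 2.97% and 3.29%). The E3 interaction called 2, Grip2 at 1.21 (SE 0.24), which anchors AMPA receptors, and Neto2 at -0.90 (SE 0.19), an auxiliary subunit of kainate receptors. In fasted against fed WT of E1 and E3, of 14 genes of glutamate release and clearance 3 rose and 2 fell, of 18 AMPA receptor partners 5 fell, of 6 kainate and delta receptor partners 1 rose, and of 12 GABA-A receptor partners 2 rose. Over the 7 lists these are 13 of 82 genes, against 10.7% of all genes. edgeR called 0 of 8 genes of GABA synthesis and clearance, 0 of 17 of the postsynaptic scaffold and 0 of 7 GABA-B receptor partners there, where 2, 3 and 2 had an unadjusted p under 0.05 (29.1% of all genes). Glul, which turns glutamate into glutamine in astrocytes, had 0.48 and Slc1a3, a glial glutamate transporter, 0.30. Slc17a7, a vesicular glutamate transporter of cortex and thalamus, had 2.15, and Slc38a3, a glutamine transporter, -0.39. Slc17a7 is also among the markers of cortex and hippocampus that were looked up. The part of neighbouring tissue in its value was not tested. The AMPA receptor partners that fell included Grip2 at -0.64, Cacng2 at -0.40, Shisa9 at -0.40 and Grip1 at -0.40. C1ql3, a ligand at excitatory synapses, had 0.81, and Gabarapl1, of the GABA-A receptor transport and autophagy protein family, 0.28.

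In fasted against fed KO of both lines, the same lists had 3 higher and 1 lower in glutamate release and clearance, 1 higher and 3 lower among AMPA receptor partners, 2 higher among kainate and delta receptor partners, 1 lower in GABA synthesis and clearance, 2 lower in the scaffold, and 1 higher and 1 lower among GABA-A receptor partners. In all, 15 of 82 were called, against 19.2% of all genes. Glul had 0.66, Cacng8, an AMPA receptor auxiliary subunit, -0.45, Cbln4, a synaptic organiser, 0.43, and Dlg2, the scaffold protein PSD-93, -0.36. Shisa7, a partner of GABA-A receptors, had -0.44 and Aldh5a1, the last enzyme of GABA breakdown, -0.27. In E3 WT, Grip2 fell by 1.11, Cacng2 by 0.66 and Shank3 by 0.72, and C1ql3 and Neto1 had 1.43 and 0.80. In E1 KO, Glul had 0.72, Slc38a2, a glutamine carrier, 0.62, Slc17a7 5.11, Grip1 -0.77 and Kcnj9, a potassium channel subunit opened through GABA-B receptors, 0.65. The part of neighbouring tissue in the Slc17a7 value, as for Gabrd and Gabra4 in E1 KO, was not tested. In fasted E5 WT against fed E2 WT, all 4 genes called of 8 in GABA synthesis and clearance were higher (30.7% of all genes were called in either direction), among them Gad1, the main GABA-making enzyme, by 0.63 (SE 0.11), Gad2 by 0.41 (SE 0.12) and the vesicular transporter Slc32a1 by 0.39 (SE 0.10). The hypothalamus marker sums given above were also higher in fasted E5 WT, and their part in these values was not tested.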

How the data were processed

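Total RNA from hypothalamus was sequenced, and the authors deposited raw counts per Ensembl gene in 10 tables, 1 per line and feeding state, with HISAT2, Bowtie2 and mm10 named in the submitters' processing notes (versions not given in the sources used here). The authors also deposited edgeR tables for 8 comparisons, with log2 ratios of wild type over knockout, p-values and adjusted p-values. Column names of the E3 tables begin with ctrl or 3CR and were read as fed and fasted after the table that holds them. Every count column was matched to a library, and libraries held 5517552 to 39999368 counts.

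Counts were tested with edgeR 4.0.16 (R 4.3.3): TMM factors, filterByExpr (minimum count 10, minimum total 15), and the quasi-likelihood test with Benjamini-Hochberg adjustment over all genes kept, a call being an adjusted p under 0.05. The SE was derived from the estimate and its F value, and intervals are 95%. Grm6, Gabrp and Gabra6 did not pass the filter in any fit, and Grin3b not in those of E3 in 1 feeding state or of 1 genotype, nor in fasted E4. Knockout was compared with wild type per line and state and over both states, with its interaction. Fasting was compared over E1 and E3 with line as a term, and in each. Alternatives were DESeq2 1.42.0, RLE factors, no filter, trends of GC, transcript length or gene span taken out, other models, and each library left out. Fits were tested on simulated data. Gene coordinates are those of GENCODE M21 (mm10).

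Some members and list genes are not reported here by name, nor drawn, and counts include them. Each other member is given once by its range over groups or libraries. Members called were named up to 8 per direction by p. Where fewer than 3 were called, up to 2 per direction of smallest p are given if their mean log2 CPM reached 1. The members and lists were chosen with earlier results of these data known.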

Additional observations from a re-analysis of the deposited data

Results flagged for a closer look

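The members named as called in the fasting comparisons of E1, or of E1 and E3 together, were checked for a library far from the rest of its group. This covered 19 members in the 3 groups of 4 libraries in E1, or 57 groups of values, and found 4, where chance gives about 1 in 20. In fed E1 KO, replicate 3 had Gabrb1 at 636 scaled CPM, against 726.9 to 744.5 in the others, and Grin1 at 159.5, against 147 to 148.2. Replicate 4 of fed E1 KO had Gabrr2 at 4.44, against 2.38 to 2.59 in the others. Replicate 3 of fed E1 WT had Gabrr3 at 4.92, against 2.741 to 3.005 in the others, and the highest thalamus marker sum of its group, 2126.

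The fasting difference of wild types in E1 minus that in E3 passed the edgeR test for 7 members. It was 2.18 for Gabrr2, 1.24 for Grin2c, 0.75 for Grin2d, 0.46 for Grin1, -1.01 for Gabra2, -0.84 for Grm5 and -0.65 for Gria2 on the log2 scale. Of 20 alternatives, Gabrr2, Grin2c and Gabra2 passed in all, Grm5 in 18, Gria2 in 15, Grin2d in 13 and Grin1 in 4. After the GC trend was taken out, Gria2 was at -0.25 and Grin1 at 0.19, with edgeR adjusted p of 0.296 and 0.238. Line, batch and sex as read from Ddx3y cannot be told apart in these values.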

How the results depend on the processing

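Of the named values past the threshold, 908 values under the alternatives stayed past it in the same direction, and the rest kept the direction but no longer passed. Of those not past it, 1305 stayed so, 17 passed and 2 changed sign. Both sign changes were those of Grm4 in fasted E4 KO (0.054 with the GC trend taken out, 0.080 without fasted E4 WT 2, and down to -0.21 without fasted E4 WT 1).

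Counts of members called moved as follows, and the cause was not tested. The share of all genes called under each alternative is not given beside these counts or those with libraries left out. The counts therefore do not show whether receptor genes moved more than other genes. DESeq2 called 6 in fasted E3 KO, 8 in the E3 interaction, 8 in WT of E1 and E3, 11 in E1 WT, 1 in E3 KO with fasting and 11 for E1 minus E3. One model of both feeding states called 3 in fasted E3 KO. In the E3 interaction, RLE factors gave 1, no filter on low counts 1, the transcript length trend taken out 3 and the span trend 4, while the GC trend taken out gave none. The span trend taken out gave 8 in KO of E1 and E3 and 1 in E1 WT. The GC trend taken out gave 4 in E3 WT and 3 for E1 minus E3. Without libraries that held other tissue or were of low depth, 0 were called in WT of E1 and E3, 5 in E3 WT, 4 for E1 minus E3 and 6 in fasted E5 WT against fed E2 WT. That alternative and the span trend were chosen after seeing the data.

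Leaving out each library gave 0 to 1 calls in fasted E2 KO, 0 to 4 in the E3 interaction, 3 to 10 in WT and 9 to 24 in KO of E1 and E3, 2 to 15 in E1 WT, 21 to 27 in E1 KO, 2 to 16 in E3 WT, 3 to 14 for E1 minus E3, 14 to 26 in fasted E5 WT against fed E2 WT, and 0 in the other comparisons.

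With the replicate block, 7 members were called in E3 WT with fasting, and 0 in the knockout comparisons of fed E3, fasted E3, fed E4 and fed E5, over both states and in the interaction of E3, and in E3 KO with fasting. The numbers were not taken to pair libraries: the correlations of same-numbered libraries were -0.083 to 0.039 in fed E3, 0.046 to 0.219 in fasted E3, -0.104 to 0.175 in fed E4 and -0.262 to 0.392 in fed E5.

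Groups held 3 or 4 libraries of 5517552 to 39999368 counts, the lowest in fasted E4 KO 1, where 10 genes took 33.36% of the counts in genes common to all tables. The region counted and the strand are not stated, so levels per kb and values of overlapping genes are uncertain.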
